A study of Zea mays with 18 samples.

Results

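This section describes 198 cDNA clones without a gene name whose signal was lower in opaque2 (o2) than in wild-type maize endosperm in every replicate of the series. They were chosen from 7466 clones with values, of which 6977 have no gene symbol in the platform annotation and 489 have one. A clone was a member if all 9 replicate values of o2 over wild type lay below 0 and their mean was at or below -0.585, which is 1.5-fold lower if the deposited log ratio is on base 2. The members make up 2.84% of the unnamed clones. Because these values chose them, their size in o2 over wild type is a description, without a test. The annotation names none of them, so no role can be given, and the files do not say which clones carry the same transcript. The 198 clones may therefore stand for fewer genes.

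Opaque2 is a transcription factor of the bZIP family that acts in the starchy endosperm, the storage tissue of the kernel. It is known to activate genes of the zeins, the main storage proteins of maize seed, and pdk1, the gene of pyruvate orthophosphate dikinase. Kernels of its mutants are soft and opaque.

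Messenger RNA of immature endosperm, frozen at 14 days after pollination, was compared on 2-colour cDNA arrays in 3 settings. The first set the B46 opaque2 mutant against B46 wild type, and the second the M14 opaque2 mutant against M14 wild type, both inbred lines. The third, called mixed, set a pool of 8 opaque2 mutant lines (A619, B14A, B45, B46, B57, B66, B73 and M14) against a pool of the same 8 lines in wild type, so it holds RNA of B46 and M14 too. The mutant allele is not named in the labels. Each setting had 3 independent sample pairs, each hybridised to 2 arrays with the dyes exchanged; the 2 arrays were averaged and count as 1 replicate. A ratio carries no level of expression, so the tissue label could not be set against marker levels. In whole endosperm, fewer cells of a type and less RNA per cell cannot be told apart.

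The direction of the deposited ratio is not settled, and every "lower" below rests on reading it as wild type over o2, already turned for the dye. The design text names wild type first in each comparison, which is the basis of the order, but it does not say whether values were turned for the dye. Over all clones the 2 arrays of a dye swap correlated between r = -0.35 and r = -0.018, below 0 in all 9 replicates. A negative sign there is what a table of Cy5 over Cy3 would give. In a table already turned for the dye, a dye effect particular to a clone would also change sign between the 2 arrays. The sign of r therefore cannot separate these readings, and which of them holds was not tested. Among arrays with wild type on Cy5, r between replicates ran from -0.34, for the first replicates of M14 and of the mixed pools, to 0.44, and was above 0 in 23 of 36 pairs. Among those with wild type on Cy3 it ran from -0.26 to 0.34 and was above 0 in 24 of 36. If the table held o2 over wild type, every value below would keep its size and stand above 0. If it held Cy5 over Cy3, averaging a dye swap would remove an o2 effect, which would show instead in the difference between its arrays. That difference divided by 2, called the dye contrast here, is given below for the same clones. Over all clones, at an adjusted p under 0.05, limma called 516 in the average over the comparisons, in either direction, and 0 in the dye contrast. The base of the logarithm is not stated either, so changes are in log units.

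Over the 9 replicates the members averaged between -3.05 and -0.59 log units, with a median of -1.07. At the median member this is 2.10-fold lower in o2 if the logarithm is on base 2, or 2.93-fold if it is natural. Of the 198, 111 averaged -1 or lower. The last members inside the limit were clones 12865 and 8721, both at -0.59, and the first unnamed clones outside it with all 9 values below 0 were 14661 at -0.58 and 12347 at -0.57. Altogether 373 unnamed clones (5.35%) had all 9 values below 0, so 175 stood between the limit and 0.

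The members were lowest in B46. The median of the 198 comparison means was -1.46 in B46, -0.71 in M14 and -0.81 in mixed pools, against 0.0068, -0.0023 and -0.013 over all clones. With arrays scaled to the same spread, the medians of the members were -1.27, -0.69 and -0.91. The comparison means ran from -5.54 to -0.32 in B46, from -3.48 to -0.17 in M14 and from -1.85 to -0.11 in mixed pools. B46 had the lowest of the 3 means in 177 members, M14 in 13 and the mixed pools in 8. A mean of -2 or lower was reached by 63 members in B46, 6 in M14 and 0 in mixed pools. In 146 members all 3 means were at or below -0.5, and in 34 all were at or below -1.

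Replicates of one comparison differed in how low the members stood. In B46 the median member stood at -1.92, -1.09 and -1.57 in replicates 1, 2 and 3. In M14 it stood at -0.87, -1.06 and -0.21, and in mixed pools at -0.83, -0.93 and -0.67. All clones varied little in M14 replicate 3: the median absolute deviation over all clones was 0.13 there and in mixed replicate 3, and between 0.20 and 0.29 in the other replicates. In M14 replicate 3 no member reached -1, and the value nearest 0 was -0.0005. Without this replicate 230 clones met the rule on the other 8 replicates, among them all 198 members. The SD between replicates was, at the median member, 0.50 in B46, 0.46 in M14 and 0.20 in mixed pools, against 0.26, 0.27 and 0.22 over all clones. It was smaller than the size of the mean in 195, 192 and 196 of the members. The rule asks that all values of a comparison lie below 0, which favours this, so nothing is read from these counts.

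**Figure D1:**
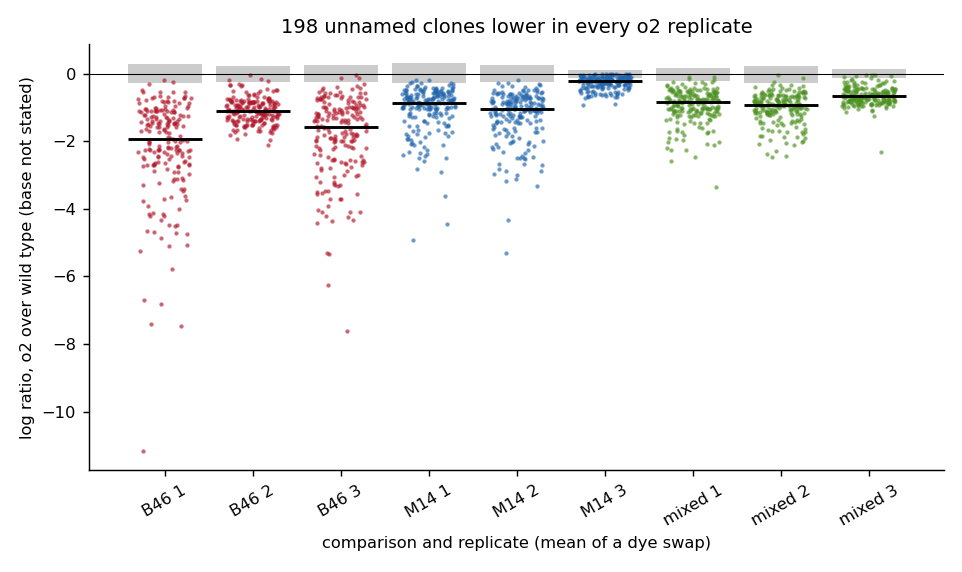
Log ratio of o2 over wild type (vertical axis, log units of unstated base) of the 198 members in each of the 9 replicates. Points are clones, black lines are medians of the members, and grey bands are the median of all clones plus and minus their median absolute deviation. The members' medians lie between -1.92 in B46 replicate 1 and -0.21 in M14 replicate 3.

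The lowest member was clone 6665, with -11.16, -0.89 and -4.32 in B46, -2.33, -3.16 and -0.71 in M14, and -2.02, -1.85 and -1.03 in mixed pools. Its B46 values spread widely: the mean was -5.46 ± 5.23 (SD, n = 3), while both arrays of B46 replicate 1 were very low, at -11.61 and -10.72. Over 9 replicates it averaged -3.05, which is 8.30-fold on base 2, or 21.2-fold if the logarithm is natural. Without B46 replicate 1 it averaged -2.10, which is 4.29-fold on base 2 or 8.18-fold on the natural logarithm.

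Clone 2385 stood at -7.40, -1.60 and -7.60 in B46, at -0.95, -2.09 and -0.33 in M14, and at -1.42, -1.74 and -0.89 in mixed pools. Clone 10519 had the same lean, with -4.65, -1.69 and -6.27 in B46 against values between -1.25 and -0.31 in M14. Clone 2209 averaged -4.09 ± 2.59 in B46, -0.84 ± 0.64 in M14 and -0.94 ± 0.17 in mixed pools (SD, n = 3 each). These 3 clones were lower in every B46 replicate than in any M14 replicate, except that B46 replicate 2 of clone 2385 (-1.60) overlapped M14 replicate 2 (-2.09).

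Other members leaned towards M14. Clone 221 stood at -3.30, -1.32 and -1.10 in B46, at -4.91, -5.32 and -0.20 in M14, and at -1.36, -1.90 and -0.72 in mixed pools. Its low M14 values came mainly from the arrays with wild type on Cy3, at -7.89 and -8.94 in replicates 1 and 2, against -1.94 and -1.69 on their partners. Clone 449 averaged -1.14 ± 0.10 in B46, -2.85 ± 1.98 in M14 and -1.74 ± 1.40 in mixed pools (SD, n = 3 each). Clone 265 averaged -0.61 ± 0.41, -1.77 ± 1.53 and -0.53 ± 0.27. In all 3 the value of M14 replicate 3 lay among the B46 values or nearer to 0, so the groups overlapped.

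A few clones were lower in the pools than in both inbreds. Clone 10565 averaged -0.96 ± 0.32 in B46, -1.45 ± 1.25 in M14 and -1.78 ± 1.11 in mixed pools (SD, n = 3 each). Clone 10547 averaged -0.50 ± 0.19, -0.60 ± 0.27 and -1.405 ± 1.16, where mixed replicate 1 stood at -0.11 and replicate 3 at -2.32. Clone 4639 averaged -0.77 ± 0.37, -0.21 ± 0.16 and -1.16 ± 0.85. None of the 3 had mixed replicates that all lay below both inbreds.

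The steadiest members stood near the limit. Clone 4593 stood at -0.80, -0.75 and -0.68 in B46, at -0.74, -0.71 and -0.44 in M14, and at -0.48, -0.51 and -0.53 in mixed pools. Its pooled SD within comparisons was 0.10 log units, the smallest of the 198, and that of clone 4485 was 0.16 around means of -0.88, -0.42 and -0.51. The largest pooled SD were those of clones 6665 (3.12), 2385 (2.05) and 143 (2.03). Clone 143 owed its spread to B46 replicate 1 at -7.48, against -2.12 and -1.87 in the other B46 replicates.

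The difference between lines was tested for every clone with limma over all 7466 clones, and no clone passed at an adjusted p under 0.05 in any of the 3 differences. B46 was below M14 in 179 of the 198 members, with a median difference of -0.67 log units (-0.011 over all clones). With arrays scaled to the same spread that median was -0.54. The lowest adjusted p among the members was 0.389 in limma. At an unadjusted p under 0.05, 93 members were lower in B46 than in M14 and 0 were higher, beside 404 and 329 of all clones. The rule used the mean over the same replicates, and a clone with large B46 values reaches its limit more easily, so the choice of members may set part of this lean, which was not tested. Among the 175 unnamed clones with all 9 values below 0 but a mean above the limit, the median difference was -0.18. All 3 B46 values lay below all 3 M14 values in 72 members (36.4%), against 8.84% of all clones. B46 lay wholly below the mixed pools in 90 members (45.5%, against 6.67% of all clones). The median difference of B46 minus the mixed pools over members was -0.59, or -0.34 with arrays scaled to the same spread. M14 lay wholly above the mixed pools in 4 members (2.02%, against 7.11%) and wholly below them in 0 (against 5.81%).

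The member with the smallest unadjusted p in the difference was clone 12303, singled out after its values were seen. It stood at -2.90, -1.67 and -2.80 in B46, at -1.03, -0.37 and -0.14 in M14, and at -1.04, -1.12 and -0.74 in mixed pools. The difference of B46 minus M14 was -1.95 ± 0.37 log units (SE, limma adjusted p = 0.389), with groups that did not overlap. Clone 2385 had the largest difference, -4.41 ± 1.498, and clone 449 the largest in the other direction, 1.70 ± 1.03. The counts called depended on B46 replicate 2, the B46 replicate in which the median member stood nearest to 0. Without it 21 members were called in B46 minus M14, beside 24 of all clones. In B46 minus the mixed pools 15 members were called, beside 17 of all clones. In the fit of all 9 replicates 0 members were called in either. For M14 minus the mixed pools the median difference over members was 0.076, and M14 was the lower in 72 of them. Without M14 replicate 3 that median was -0.15.

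**Figure D2:**
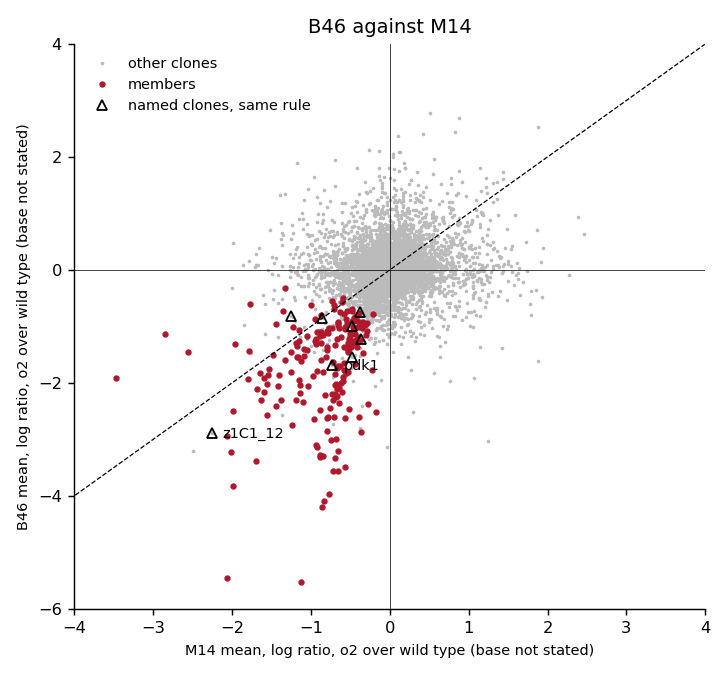
Mean of 3 B46 replicates (vertical axis) against the mean of 3 M14 replicates (horizontal axis), in log units of o2 over wild type, for all 7466 clones. Red points are the members, triangles are named clones that meet the same value rule, and the dashed line marks equal values; 179 of the 198 members lie below it.

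In the contrasts that chose the members, limma called 150 of the 198 lower in B46 at an adjusted p under 0.05, beside 3.66% of all clones called lower. Averaged over the comparisons it called 178 lower, beside 4.94% of all clones. Nothing is read from these counts, since the same values picked the clones. The count of members in B46 was 0 without B46 replicate 1 and 1 without B46 replicate 3, beside 1 and 7 of all clones. In neither M14 nor the mixed pools was a member called (0% of all clones). At an unadjusted limma p under 0.05, 139 and 148 members were lower there, beside 472 and 461 of all clones. Without M14 replicate 3, 16 members were called lower in M14, beside 44 of all clones called in either direction.

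The dye contrast was not used by the rule, which took the mean of both arrays. Averaged over 9 replicates and signed as o2 over wild type if the table held Cy5 over Cy3, it had a median of -0.044 log units in the members and ran from -0.52 to 0.73. No member passed limma's test of it (lowest adjusted p = 0.716), nor did any other clone (0%); 2 members had an unadjusted p under 0.05, beside 496 of all clones. Its size had a median of 0.068 in the members and 0.10 over all clones, and its 90th percentile was 0.19 in the members and 0.48 over all clones. In all 198 members it was smaller than the mean of the dye swaps, and in 189 it was at most 25% of it. The rule picked members for the size of that mean, so both counts are largely set by the choice and nothing is read from them. By comparison the median dye contrast over members was -0.16 in B46, -0.13 in M14 and 0.15 in mixed pools. The same rule applied to the dye contrasts picked 2 unnamed clones, 6371 at -0.71 and 8477 at -0.99, named here after their values were seen, and neither was a member.

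Most members were below 0 whichever dye carried the wild type. Of the 198, 119 were below 0 on all 18 arrays, 52 on 17, and the remaining 27 on between 13 and 16. Over all clones 152 were below 0 on all 18 arrays. The median member ran from -1.71 to -0.15 on the 9 arrays with wild type on Cy3 and from -2.01 to -0.30 on those with wild type on Cy5. The rule asked that the mean of every dye swap lie below 0 and that the mean of all be low. This favours these counts and medians, so nothing is read from them. Clones were also picked on the arrays of one dye orientation alone, with the same limits, and read on the other arrays. Of 200 unnamed clones picked with wild type on Cy5, 117 (58.5%) were below 0 on all 9 arrays of the other orientation, against 2.996% of all unnamed clones. Of 137 picked with wild type on Cy3, 114 (83.2%) were below 0 on all 9 others, against 4.07%. Members made up 156 of those 200 and 131 of those 137. The arrays of a dye swap carry the same sample pair, so the other arrays repeat a measurement and are no further replicates. All 18 arrays went into the choice of the members, so these shares are a description.

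**Figure D3:**
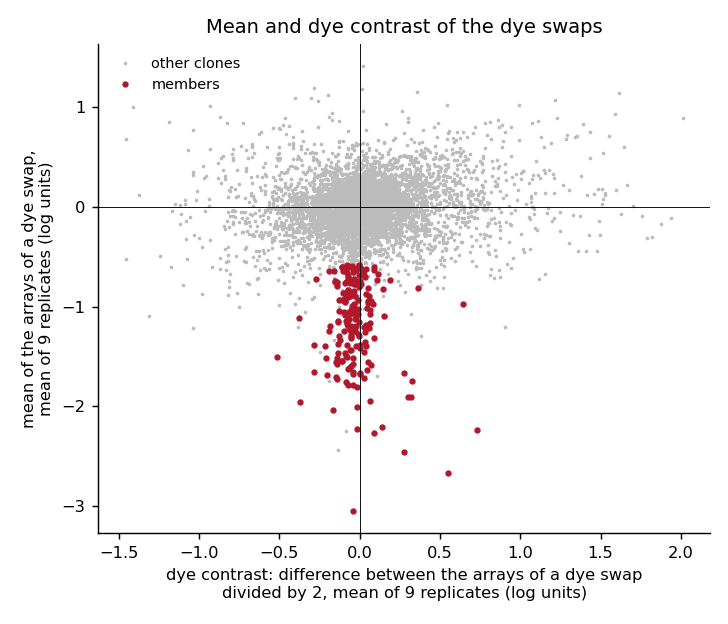
Mean (vertical axis) against dye contrast (horizontal axis) of the 2 arrays of a dye swap, both averaged over 9 replicates, in log units, for all 7466 clones. Members in red lie between -3.05 and -0.59 on the mean and between -0.52 and 0.73 on the dye contrast; other clones reach further to both sides.

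The comparisons were also held out in turn, a choice made after the data were seen. Of 179 unnamed clones picked by the same limits on the 6 replicates of M14 and the mixed pools, 156 (87.2%) were below 0 in all 3 B46 replicates, against 20.6% of all unnamed clones. Their median in B46 was -1.51. Of 273 picked without M14, 215 (78.8%) were below 0 in all 3 M14 replicates, against 17.5%, with a median of -0.58. Of 230 picked without the mixed pools, 208 (90.4%) were below 0 in all 3 mixed replicates, against 20.04%, with a median of -0.78. Members made up 152 of the 179, 194 of the 273 and 195 of the 230. All picks came from the replicates that chose the members, so these shares are a description. The mixed pools hold RNA of both inbreds, so the comparisons are not of unrelated lines.

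The members shared a place in the deposited table, which the rule did not use. Rows without a value recur at 116 fixed offsets in 8 blocks of 2070 rows, which account for 57.0% of the 1628 such rows. A division into 4 blocks of 4140 rows, each a pair of those blocks, accounts for 59.0% at 240 offsets. The shorter block was used, a choice made after the data were seen, and each clone has a row number within its block. All 198 members lay between row 1837 of one block and row 629 of the next. When a block was divided into 23 bins of 90 rows, 10 neighbouring bins held every member and 13 held none. Inside those 10 bins were 2811 unnamed clones, of which 7.04% were members; outside were 4166, of which 0 were members. The share peaked at 10.8% between rows 91 and 180, was 10.4% between rows 1891 and 1980, and was 0.312% in the last of these bins. Each of the 8 blocks held between 18 and 36 members.

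The bins were drawn after the members' rows were seen, so their split is not tested. The 175 unnamed clones with all 9 values below 0 that were not members did not define the bins. Of these, 159 lay in the 10 bins (6.09% of the unnamed clones there without the members) and 16 outside (0.384%). By the mean alone, unnamed clones averaging -0.585 or lower numbered 268 in the bins, members among them, and 42 outside. Unnamed clones averaging 0.585 or higher numbered 38 in the bins (1.35%) and 81 outside (1.94%). Leaving the members out, the median clone averaged -0.029 in the bins and 0.038 outside. The shift of the median clone was largest in B46 replicate 1, at -0.077 in the bins without the members and 0.10 outside, beside a median of -1.92 in the members there. Which source libraries or slide areas these rows stand for is not given in the sources used here, and their part in the result was not tested.

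**Figure D4:**
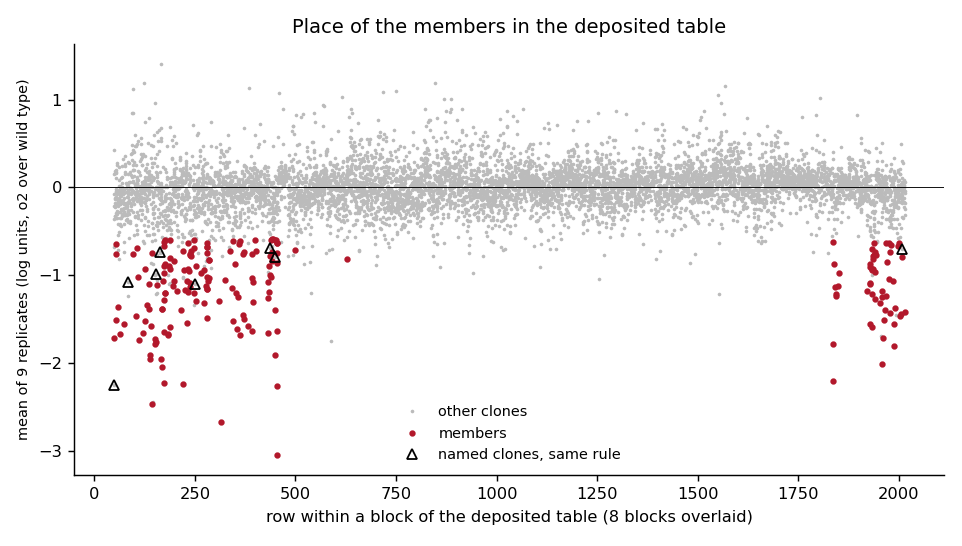
Mean of 9 replicates (vertical axis, log units, o2 over wild type) against the row of a clone within its block of the deposited table (horizontal axis), with the 8 blocks overlaid. Members in red lie between row 1837 and row 629 of the next block, as do the 8 named clones that meet the same value rule (triangles).

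Among the 489 named clones, 8 (1.64%) met the same value rule, and all 8 lay in the same 10 bins, which held 196 named clones. They were z1C1_12, an alpha zein storage protein gene, dzs18, a delta zein gene, pdk1, betl2, which marks the transfer cells through which nutrients enter the endosperm, les22, a gene of porphyrin synthesis, Asn1 (LOC606433), LOC541999 and LOC542547. The reading of the ratio was taken with the values of z1C1_12 and pdk1 known, so their own low values are no independent evidence for it. The o2 clone averaged -0.42 (limma adjusted p = 0.015 in the average) and did not reach the limit. Its 9 values ran from -0.84 to -0.058. It stood at row 65 of its block, in the same 10 bins.

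Values of members were set beside those of z1C1_12, pdk1, dzs18 and o2 over the 9 replicates. Likeness was measured as the mean absolute difference between 2 clones over the 9 values, a measure chosen after the data were seen. The zein clone z1C1_12 stood at -3.68, -1.43 and -3.54 in B46, at -2.73, -3.44 and -0.61 in M14, and at -1.99, -1.72 and -1.10 in mixed pools. Its nearest clones of all 7465 others were members 12187 (0.22 log units), 2525 (0.29), 4027 (0.30), 8453 (0.44) and 10117 (0.48), and 19 of its 20 nearest clones were members. Clone 12187 stood at -4.22, -1.34 and -3.27 in B46, at -2.58, -3.10 and -0.51 in M14, and at -1.95, -2.005 and -0.94 in mixed pools. Clone 4027 had -3.11, -1.36 and -3.01 in B46, -2.49, -2.81 and -0.66 in M14, and -1.76, -1.96 and -0.96 in mixed pools. In each of these the second B46 replicate and the third M14 replicate were the values nearest 0 of their comparison. The number of members among the nearest clones is a description, since low values chose them.

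For pdk1, 123 members lay within 0.5 log units of it, out of 138 clones so near, and 18 of its 20 nearest clones were members. Its average of -1.07 is that of the median member, so this measure, which follows size, places many members near it. The pdk1 clone stood at -1.76, -1.54 and -1.74 in B46, at -0.61, -1.34 and -0.23 in M14, and at -0.69, -0.89 and -0.87 in mixed pools. Clone 4045 lay 0.13 from it, with -1.73, -1.18 and -1.98 in B46, -0.71, -1.18 and -0.26 in M14, and -0.68, -0.96 and -0.73 in mixed pools. For z1C1_12 the same limit held 5 clones, all of them members, and for dzs18 28 members out of 122 clones. The nearest member to dzs18 was clone 4329 at 0.33, and 5 of its 20 nearest clones were members. The clone of o2 itself had 60 members out of 2956 clones within 0.5, since most clones lie near 0, and 0 of its 20 nearest clones were members. Between members, the median pair differed by 0.62 log units, and the closest pair, clones 4485 and 8211, by 0.067. In 51 cases 2 members stood side by side in the table, and these neighbours differed by a median of 0.49.

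**Figure D5:**
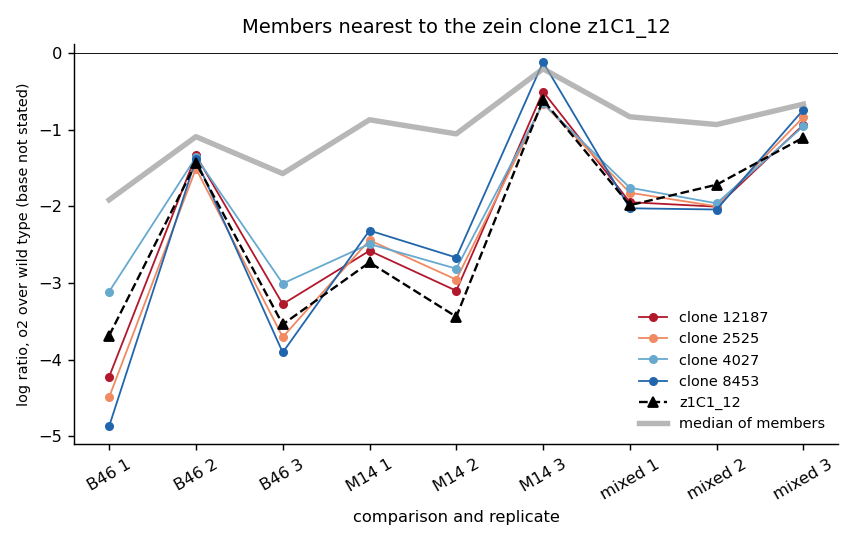
Log ratio of o2 over wild type (vertical axis, log units) in the 9 replicates for the zein clone z1C1_12 (black, dashed) and the 4 members nearest to it. The grey line is the median of the 198 members, which lies nearer to 0 in every replicate of B46 and of the mixed pools and in M14 replicates 1 and 2, while clone 8453 crosses it in M14 replicate 3.

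Named clones of other cell types were set beside the members. The list held 7 measured clones, averaging between -1.10 and 0.013, of which 6 were below 0. Apart from betl2, which met the value rule, they were betl4 at 0.013, the embryo genes ole1 (-0.063) and dhn2 (-0.075), PLTP of the aleurone (-0.052), and the light-harvesting genes lhcb5 (-0.28) and Lhcb5-2 (-0.081), each with limma adjusted p of 0.46 or higher in the average. Their part in the low values of the members was not tested.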

How the data were processed

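The authors read spot intensities with ImaGene 4.1, per the labels; how the deposited log ratios were background-corrected and normalized, their base and their direction are not given in these sources. The table has 16560 rows, 14932 with values, in identical pairs; 1 row per pair was kept, and clones are called by its number. The median of each array was subtracted, the sign turned, and the array averaged with its dye-swap partner. On each array, between 33 and 202 clones shared 1 value; 1 member held such a value.

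The test across clones was limma 3.58.1 under R 4.3.3 (lmFit, eBayes, a mean per comparison over 9 replicates, Benjamini-Hochberg over 7466 clones; prior degrees of freedom 1.51, residual 6), checked on simulated data. Array number limits the precision. The members and lists were chosen with earlier results of these data known. Clones printed by number are the extremes of the mean, of the differences between comparisons and of the pooled SD, and those next to the limit; others are said to be chosen afterwards. Gene names came from the platform annotation and a gene table of Zm-B73-REFERENCE-NAM-5.0, matched by gene identifier. Same-numbered replicates correlated in their deviations at r between -0.034 and 0.10, and differently numbered ones at r between -0.15 and 0.093. The ranges overlap and do not settle whether the numbers pair samples. The main fit took no pairing. No sequence of these clones was used here.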

Additional observations from a re-analysis of the deposited data

How the results depend on the processing

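The number of members was 186 with arrays centred on their mean or left as deposited and 192 with arrays scaled to the same spread. It was 111 at a mean of -1 or lower, 119 with both arrays of every dye swap below 0, and 2 on the dye contrast, which turns the values by dye. Without 1 replicate it ran from 188 to 230. Without B46 replicate 1, M14 replicate 3 and mixed replicate 3, chosen after seeing the data, it was 261.

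The replicate number was also used as a block, as the deviations do not settle whether it pairs samples. With it, 99 members were called in B46 in place of 150, and 163 in the average. Over all clones, in either direction, the block gave 185 calls in B46 and 385 in the average. On the dye contrast, 0 members were called in either, beside 5 of all clones in B46 and 0 in the average. Without 1 replicate the count of members ran from 0 to 149 in B46 (1 to 314 over all clones). It ran from 140 to 173 in the average (298 to 499 over all clones) and from 0 to 16 in M14 (0 to 44). For B46 minus M14 it ran from 0 to 21 (0 to 24) and for B46 minus mixed from 0 to 15 (0 to 17). Scaled to the same spread, 26 members were called in M14 and 48 in the mixed pools, beside 40 and 58 of all clones. The counts in B46, M14, the mixed pools and the average are a description, since the same values chose the members. The differences between comparisons and the dye contrast had 0 calls in members under each other setting run. On the dye contrast the averages of clones 2385 (0.55), 143 (0.28), 2525 (0.088), 221 (0.73) and 12187 (0.14) changed sign. The causes were not tested. Each comparison has 3 replicates, which limits what any test of a difference can call.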
